A study of Homo sapiens with 12 samples.

Results

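Hypoxia response and glycolysis were followed through 38 genes chosen by name from the 60612 genes of the larger deposited table. They comprise 17 glycolytic enzymes, 5 glucose transporters and regulators of glycolytic flux, 14 HIF targets outside glycolysis, and the 2 HIF alpha subunits HIF1A and EPAS1. Each of the 38 was found by its symbol in the tables of both cell lines, and each passed the filter on low counts in every comparison. RNA sequencing had been carried out on HCCLM3, a human hepatoma line, and on LX2, a human line of hepatic stellate cells, both labelled wild type and held in a tumor-on-a-chip device. The 4 groups, with 3 libraries each, were HCCLM3 grown with LX2, HCCLM3 grown alone, LX2 grown with HCCLM3, and LX2 grown alone. Whether replicates were separate cultures is not stated in the labels, and the p-values therefore reflect only the scatter among the libraries at hand, possibly a technical one. The sources used here give neither the oxygen level in the device nor the way the lines were parted before extraction.

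The hypoxia-inducible factors (HIF) are pairs of an oxygen-labile alpha subunit, such as HIF1A or EPAS1, and a stable beta subunit. When oxygen is present, prolyl hydroxylases of the EGLN family mark the alpha subunit for destruction through VHL, and when oxygen is scarce the pair binds the short DNA core ACGTG or GCGTG, the hypoxia response element, and raises the transcription of its targets. These targets include glucose transporters and most enzymes of glycolysis, which splits glucose into pyruvate and lactate, and also genes of pH control, mitophagy, collagen hydroxylation and vessel tone. In solid tumors, a raised CA9 or SLC2A1 is widely used as a mark of low oxygen, and activated stellate cells are known for high glycolysis.

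The libraries held 65675929 to 68178411 counts in HCCLM3 with LX2, 68088914 to 77712308 in HCCLM3 alone, 64438991 to 69891842 in LX2 with HCCLM3 and 61836616 to 65314354 in LX2 alone. Of the markers of the labelled lines, the epithelial list (EPCAM, KRT8, KRT18, KRT19, CDH1) summed to 5806 to 6597 CPM (counts scaled to library size) in HCCLM3 alone and 162 to 167 CPM in LX2 alone, whereas only 3 of the 15 hepatocyte markers had a mean of 1 FPKM or more in the same libraries. In LX2 alone 5 of 12 stellate cell markers reached 1 FPKM, and COL1A2, LRAT and SPARC stood at 0. The epithelial list also moved with co-culture in HCCLM3, where it summed to 3450 to 4308 CPM with LX2, below every library grown alone; KRT8 fell (log2 -0.91, edgeR adjusted p = 0.00415). In LX2 with HCCLM3 the epithelial list summed to 145 to 151 CPM, although KRT8 rose there (log2 0.53, edgeR adjusted p = 0.00174). Red cell markers moved with co-culture in HCCLM3: 15 of 15 had counts in HCCLM3 with LX2, summing to 97.3 to 140 CPM, against 3 of 15 and 0 to 0.0787 CPM in HCCLM3 alone, where 12 of the list (among them HBD, ALAS2 and SLC4A1) were at 0. Leukocyte markers summed to 32.5 to 37.2 CPM in HCCLM3 with LX2 and to 8.50 to 13.9 CPM in HCCLM3 alone, where 9 of the 15, among them LAPTM5, S100A8 and MPO, were at 0. In LX2 the red cell list summed to 0.0621 to 1.75 CPM with HCCLM3 and 0.0919 to 0.243 CPM alone, and the leukocyte list to 2.53 to 2.95 CPM with HCCLM3 and 3.37 to 5.34 CPM alone. Hepatocyte markers summed to 364 to 377 CPM in HCCLM3 with LX2 and 63.7 to 79.0 CPM in HCCLM3 alone, and to 2432 to 2701 CPM in LX2 with HCCLM3 and 877 to 893 CPM in LX2 alone, where in either LX2 group 1 of the 15 reached 1 FPKM, while 4 were at 0 with HCCLM3 and 7 alone. Stellate cell markers in HCCLM3 summed to 52.6 to 118 CPM with LX2 and 48.8 to 74.3 CPM alone. Their part in the results below was not tested. In bulk libraries, fewer cells of a type and less RNA per cell cannot be told apart.

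Promoter windows from RefSeq (build GRCh38.p14, 250 bases before to 50 after each start site) were found for 35 of the 38 genes, 61 windows in all, and are missing for SLC2A3, NDRG1 and BNIP3L. The core letters ACGTG or GCGTG, searched on both strands with overlapping matches counted, stood in 42 of the 61 windows (68.9%), against 48.4% of all 35116 windows. ACGTG alone stood in 24 of the 61 (39.3%), against 21.4% of all windows. Genes can have several windows, and 32 of the 35 genes (91.4%) had at least 1 match in a window, against 52.4% of 27305 genes. No match stood in the windows of PGAM1, EGLN3 or P4HA2. The 250 bases before the start site are shown for 5 genes whose values carry the results below: CA9, which rose in both lines but by far more in HCCLM3, PFKFB4, which was called in HCCLM3, ALDOC, which rose in both lines, and ANKRD37 and P4HA1, which were called in LX2. They are written 5′ to 3′ on the strand of the gene, with the core letters of either strand in capitals; in CACGTG the matches of both strands overlap.
CA9, chr9:35673678-35673927, plus strand: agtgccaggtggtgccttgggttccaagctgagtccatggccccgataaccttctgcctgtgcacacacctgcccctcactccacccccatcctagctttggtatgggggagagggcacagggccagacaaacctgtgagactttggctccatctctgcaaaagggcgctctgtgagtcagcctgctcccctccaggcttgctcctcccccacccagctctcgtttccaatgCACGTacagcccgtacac
PFKFB4, chr3:48556804-48557053, minus strand: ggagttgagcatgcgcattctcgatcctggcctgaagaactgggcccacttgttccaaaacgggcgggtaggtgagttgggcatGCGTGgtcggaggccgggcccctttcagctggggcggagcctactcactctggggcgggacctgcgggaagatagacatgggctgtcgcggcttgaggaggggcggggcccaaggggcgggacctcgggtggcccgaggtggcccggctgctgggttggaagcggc
ALDOC, chr17:28576896-28577145, minus strand: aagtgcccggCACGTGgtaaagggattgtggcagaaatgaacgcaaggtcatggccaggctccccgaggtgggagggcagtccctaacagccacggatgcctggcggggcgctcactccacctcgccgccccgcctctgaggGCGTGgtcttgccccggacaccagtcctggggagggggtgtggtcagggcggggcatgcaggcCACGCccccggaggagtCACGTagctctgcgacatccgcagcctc
ANKRD37, chr4:185396591-185396840, plus strand: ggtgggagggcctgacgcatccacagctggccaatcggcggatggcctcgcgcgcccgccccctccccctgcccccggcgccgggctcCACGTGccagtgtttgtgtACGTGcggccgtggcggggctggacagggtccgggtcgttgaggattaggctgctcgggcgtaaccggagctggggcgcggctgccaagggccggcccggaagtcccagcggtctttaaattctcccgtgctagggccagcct
P4HA1, chr10:73096867-73097116, minus strand: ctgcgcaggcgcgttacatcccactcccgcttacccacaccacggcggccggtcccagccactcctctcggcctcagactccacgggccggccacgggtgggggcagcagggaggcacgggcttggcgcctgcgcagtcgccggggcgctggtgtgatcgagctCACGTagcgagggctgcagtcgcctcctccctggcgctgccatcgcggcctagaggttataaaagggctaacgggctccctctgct
With -1 as the last base before the start site, the match in CA9 began at -18, that in P4HA1 at -86 and that in PFKFB4 at -166. ALDOC held 5 matches, from -240 to -28, and ANKRD37 held 3, from -162 to -143. SLC2A1, which fell in HCCLM3, held 1 match, at position 26 after its start site. A match is a feature of these letters and was not tested as a binding site.

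The first comparison asks what growth with LX2 did to these genes in HCCLM3. Of the 38 genes, 6 rose and 8 fell (quasi-likelihood test of edgeR, p adjusted by Benjamini-Hochberg over 18045 genes, threshold 0.05). That is 15.8% and 21.1% of them, beside 10.1% of all tested genes that rose and 11.6% that fell. The rises were CA9, NDRG1, BNIP3L and EGLN3 among the HIF targets outside glycolysis, the flux regulator PFKFB4 and the aldolase ALDOC. The falls were 6 glycolytic enzymes, the glucose transporter SLC2A1 and the oxygen sensor EGLN1. The split depends on scaling: with library totals in place of TMM factors, which puts the median log2 change of all genes at 0.21 in place of 0.03, 11 members rose and 4 fell, and over all genes 2977 rose and 1039 fell in place of 1829 and 2095. The FPKM values given below carry no TMM factors, so in HCCLM3 they lie somewhat nearer to a rise than the log2 changes.

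Among the 14 HIF targets outside glycolysis, 4 rose and 1 fell, with a median log2 change of 0.20. That is 28.6% and 7.14% of them, beside 10.1% and 11.6% of all tested genes. CA9 (ENSG00000107159; GRCh38 chromosome 9, plus strand, 35673918 to 35681159) codes for a membrane carbonic anhydrase that exports acid equivalents. It had 20.1, 21.0 and 22.0 FPKM in HCCLM3 with LX2, against 0.677, 0.341 and 0.643 FPKM in HCCLM3 alone. Every co-cultured library was far above every library grown alone, and the gene rose 33.2-fold (log2 5.05, SE 0.27, edgeR adjusted p = 0.000313). The counts behind this were 2543, 2754 and 2824 in HCCLM3 with LX2, against 103, 51 and 85 in HCCLM3 alone. CA9 overlaps ARHGEF39 on the opposite strand, and no source used here says whether reads were counted by strand; ARHGEF39 had 1689, 2218 and 2813 counts in co-culture and 1217, 1615 and 1145 alone (log2 0.73, edgeR adjusted p = 0.0426). The other membrane carbonic anhydrase of the list, CA12, averaged 39.9 ± 2.40 FPKM in HCCLM3 with LX2 and 39.2 ± 5.88 FPKM in HCCLM3 alone (SD, n = 3 each) and was not called. CA9 made up 34.5 ± 1.23% of the FPKM of CA9 and CA12 in co-culture and 1.41 ± 0.516% alone.

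NDRG1, a stress-induced gene linked to differentiation, had 23.7, 23.2 and 25.5 FPKM in HCCLM3 with LX2 and 8.98, 8.75 and 8.57 FPKM in HCCLM3 alone. The groups stood well apart and the gene rose 2.45-fold (log2 1.296, SE 0.072, edgeR adjusted p = 0.000333). BNIP3L, a mitophagy receptor of the outer mitochondrial membrane, had 9.09, 9.04 and 9.05 FPKM with LX2 and 4.99, 5.15 and 5.61 FPKM alone, and rose 1.54-fold (log2 0.62, edgeR adjusted p = 0.0037). BNIP3L also serves the clearance of mitochondria in maturing red cells, whose markers moved with co-culture as given above; their part in its rise was not tested. Its close relative BNIP3 averaged 12.3 ± 0.969 FPKM with LX2 and 10.9 ± 0.300 FPKM alone, and its log2 change after TMM scaling was 0.00. Pseudogenes named after BNIP3 held 37.1% as many counts as the gene in HCCLM3, so its value is uncertain.

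The oxygen sensors did not move together in HCCLM3. EGLN1, the main prolyl hydroxylase acting on HIF alpha, had 19.98, 18.98 and 19.56 FPKM with LX2 and 22.39, 25.37 and 25.03 FPKM alone. All 3 co-cultured libraries were lower, and the gene fell 1.39-fold (log2 -0.48, SE 0.072, edgeR adjusted p = 0.00596). EGLN3, a related hydroxylase, was close to 0 in this line, with 86, 60 and 63 counts with LX2 and 26, 29 and 27 counts alone. It rose 2.50-fold (edgeR adjusted p = 0.0354), but the call was lost whenever any 1 library was left out (adjusted p 0.0627 to 0.126). The rest of the targets were not called. KDM3A, a histone demethylase, the collagen prolyl hydroxylase subunits P4HA1 and P4HA2, and ERO1A, an oxidase of disulfide formation, had log2 changes of 0.04 to 0.13. ADM, the vasodilator peptide adrenomedullin, averaged 19.5 ± 0.766 FPKM with LX2 and 14.4 ± 1.53 FPKM alone (log2 0.27, edgeR adjusted p = 0.115). ANKRD37, an ankyrin repeat protein, had 148, 115 and 70 counts with LX2 and 48, 61 and 65 alone (adjusted p = 0.12); it overlaps UFSP2 on the opposite strand, whose counts in HCCLM3 came to 1368% of its own. MXI1, an antagonist of MYC, had 1118, 1416 and 1117 counts with LX2 and 678, 217 and 642 alone (adjusted p = 0.0829), with 1 library grown alone far under the other two.

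**Figure D1:**
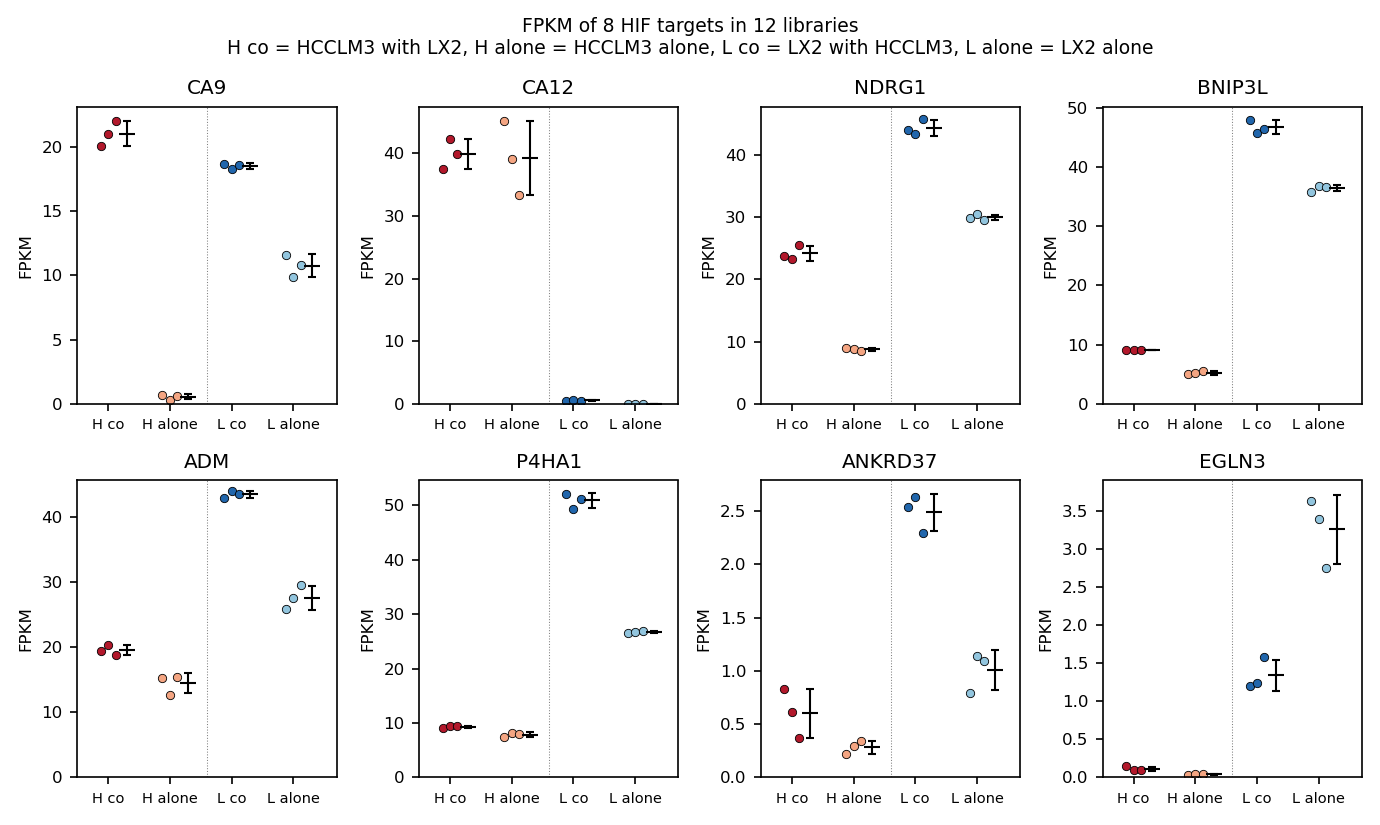
FPKM of 8 HIF targets outside glycolysis (vertical axes, from 0) by library in the 4 groups; points are libraries, with the mean and SD of 3 libraries beside them, and a dotted line parts the 2 lines. CA9 in HCCLM3 averages 21.0 FPKM with LX2 and 0.554 FPKM alone, whereas P4HA1 stands apart between the groups of LX2 (50.9 FPKM with HCCLM3 and 26.7 FPKM alone) and CA12 stays near 0 in LX2.

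Of the 17 glycolytic enzymes in HCCLM3, 1 rose and 6 fell, with a median log2 change of -0.23. That is 5.88% and 35.3% of them, beside 10.1% and 11.6% of all tested genes. With library totals in place of TMM factors 4 rose and 2 fell, and the median was -0.06. Over all genes 2977 then rose and 1039 fell, with a median of 0.21. The enzyme that rose with TMM factors was ALDOC (chromosome 17, minus strand, 28573115 to 28576948), the brain-type fructose-bisphosphate aldolase. It had 6.01, 5.74 and 5.53 FPKM with LX2, against 2.16, 2.08 and 1.67 FPKM alone. The groups did not overlap, and the rise was 2.59-fold (log2 1.37, SE 0.15, edgeR adjusted p = 0.00189). ALDOA, the main aldolase, averaged 263 ± 59.9 FPKM with LX2 and 247 ± 26.2 FPKM alone and was not called, so ALDOC was 2.21 ± 0.488% of the FPKM of both aldolases with LX2 and 0.80 ± 0.15% alone. The ALDOA value is uncertain, since AC093512.2, a gene without a symbol of its own, shares the locus on the same strand and held 32.2% as many counts in HCCLM3. The counts of both together were 107275, 92952 and 99044 with LX2 and 135177, 109478 and 104497 alone, and the groups overlapped.

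The falls that held under every alternative tried were HK1 and LDHB. HK1, the housekeeping hexokinase that traps glucose in the cell, had 21.5, 22.3 and 16.3 FPKM with LX2 and 34.8, 27.8 and 32.5 FPKM alone. All co-cultured libraries were lower, and the gene fell 1.78-fold (log2 -0.83, SE 0.15, edgeR adjusted p = 0.00998). LDHB, the lactate dehydrogenase subunit that favors lactate use, had 393, 273 and 373 FPKM with LX2 and 566, 495 and 535 FPKM alone, and fell 1.72-fold (log2 -0.79, edgeR adjusted p = 0.014). LDHA, the subunit that favors lactate formation, averaged 81.7 ± 2.88 FPKM with LX2 and 81.2 ± 2.70 FPKM alone and was not called. LDHA was thus 19.4 ± 2.60% of the FPKM of both subunits with LX2 and 13.3 ± 1.10% alone.

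GPI, PFKP, PGAM1 and ENO1, which catalyze the isomerase, phosphofructokinase, mutase and enolase steps, fell 1.27-fold to 1.40-fold (log2 -0.48 to -0.35, edgeR adjusted p 0.0145 to 0.036). None of the 4 calls held with library totals in place of TMM factors, where adjusted p was 0.0806 to 0.0957. GPI also lost its call when any library other than replicate 1 of HCCLM3 with LX2 was left out (adjusted p 0.0586 to 0.101), ENO1 without replicates 2 or 3 with LX2 or 1 or 3 alone (0.0585 to 0.0787), and PGAM1 without replicate 3 with LX2 or 1 or 3 alone (0.0502 to 0.0642). GAPDH, the enzyme of the highest level, was not called: it had 2173, 2354 and 2059 FPKM with LX2 and 2793, 2055 and 2624 FPKM alone, and the groups overlapped. PKM, a pyruvate kinase, averaged 242 ± 45.2 FPKM with LX2 and 291 ± 57.7 FPKM alone (edgeR adjusted p = 0.147). PGK1, the first ATP-yielding step, and TPI1, the triose isomerase, had log2 changes of 0.06 and -0.19, and PFKL, PFKM and ENO2 of -0.23, 0.10 and 0.69, none called. LRRC23 overlaps ENO2 on the same strand and held 24.4% as many counts in HCCLM3 (log2 0.48, edgeR adjusted p = 0.0922). SENP1, on the opposite strand of PFKM, held 33.9% as many counts as PFKM in HCCLM3 (log2 -0.03, edgeR adjusted p = 0.823). The sum of all 17 enzymes was 1.36 ± 0.0279% of the FPKM of a library with LX2 and 1.58 ± 0.181% alone, and the highest library with LX2 was level with the lowest alone at 1.38%.

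Of the glucose transporters and flux regulators, PFKFB4 rose and SLC2A1 fell in HCCLM3. PFKFB4 (chromosome 3, minus strand, 48517684 to 48561972) is a bifunctional enzyme that sets the level of the sugar bisphosphate that activates phosphofructokinase. It had 2.13, 2.21 and 2.36 FPKM with LX2 and 0.851, 0.905 and 1.12 FPKM alone, a 2.08-fold rise (log2 1.05, SE 0.14, edgeR adjusted p = 0.00369). The related enzyme PFKFB3 was not called (log2 0.02), and PFKFB4 was 25.9 ± 3.04% of the FPKM of both with LX2 and 14.5 ± 1.92% alone. SLC2A1 (chromosome 1, minus strand, 42925353 to 42958868), the ubiquitous glucose transporter GLUT1, had 6.77, 6.92 and 6.04 FPKM with LX2 and 11.2, 11.9 and 11.1 FPKM alone. The gene fell 1.95-fold (log2 -0.96, SE 0.082, edgeR adjusted p = 0.00102), also under every alternative tried. SLC2A1 and HK1 are likewise abundant in red cells, whose markers moved the other way; their part was not tested.

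SLC2A3 (GLUT3) and HK2, the hexokinase most often induced in tumors, were close to 0 in HCCLM3. SLC2A3 had 59, 27 and 53 counts with LX2 and 16, 16 and 12 alone (edgeR adjusted p = 0.056), and HK2 had 74, 83 and 117 counts with LX2 and 19, 22 and 46 alone (adjusted p = 0.0522). These differences came to 0.643% and 1.26% of the FPKM of LX2 alone, and that of EGLN3 to 2.298%. As a scale, 41 genes well expressed in LX2 and near 0 in HCCLM3 alone differed in HCCLM3 by a median of 0.143% of the LX2 level (90th percentile 0.493%). The part of LX2 transcripts in the HCCLM3 values was not tested. Pseudogenes named after SLC2A3 held 47.5% as many counts as the gene in HCCLM3, so its value there is uncertain. PDK1, the kinase that shuts pyruvate out of the mitochondrion, had 922, 1042 and 914 counts with LX2 and 791, 925 and 207 alone (edgeR adjusted p = 0.408), with replicate 3 alone far under the rest.

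**Figure D2:**
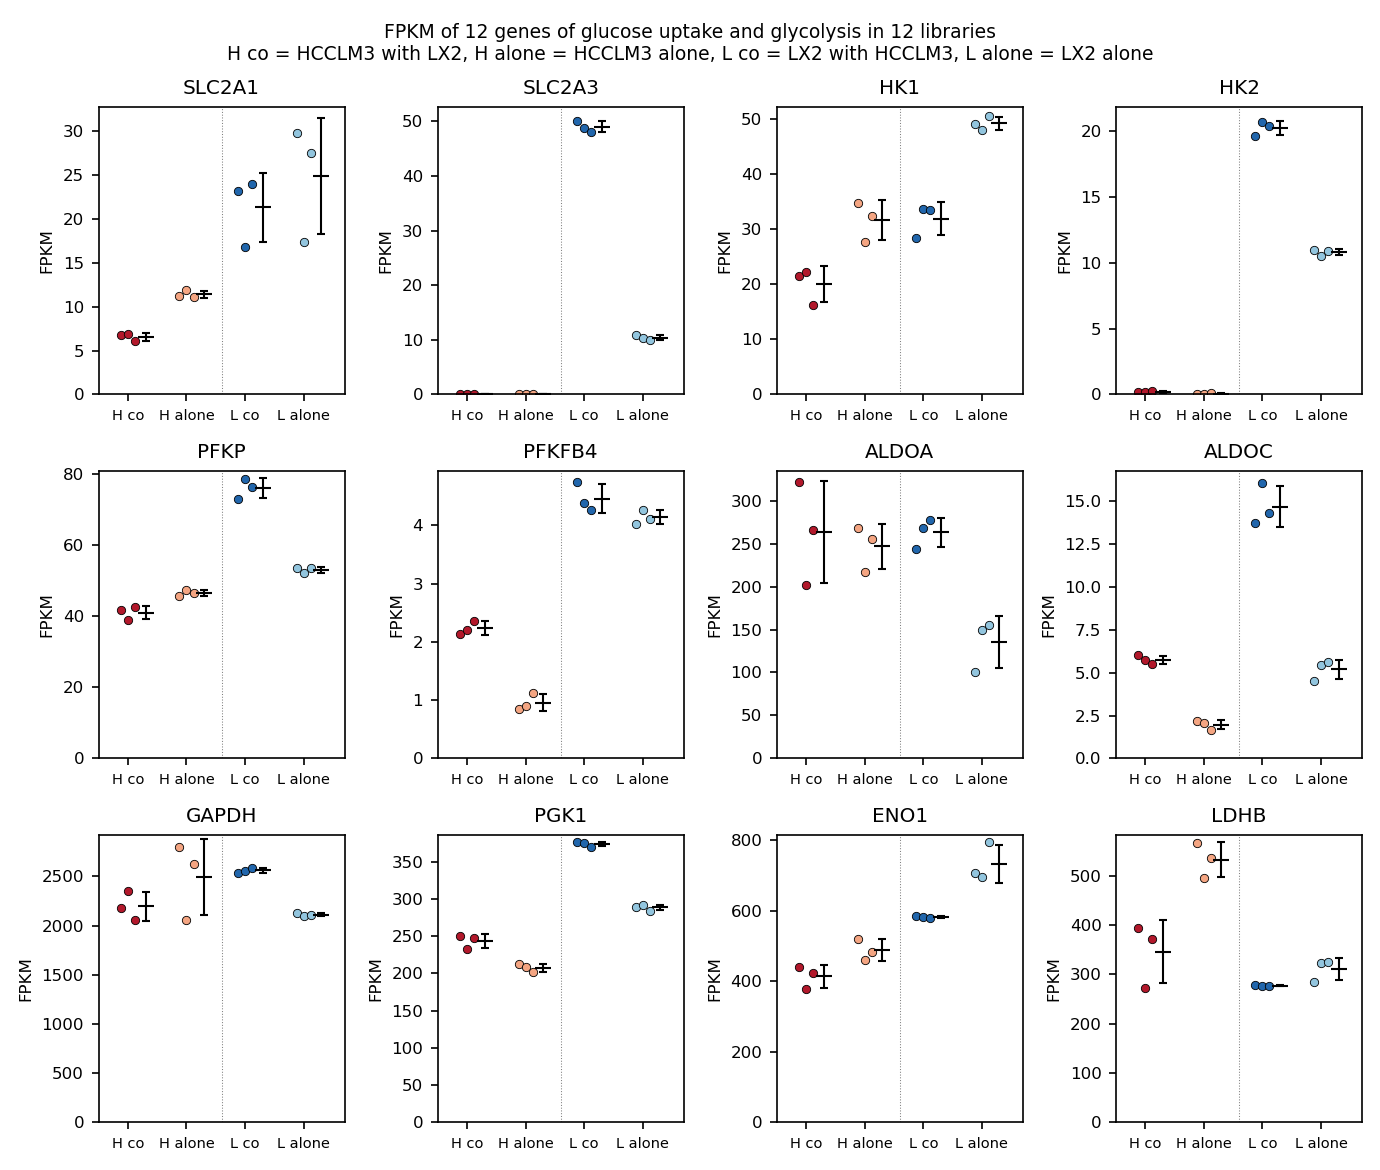
FPKM of 12 genes of glucose uptake, flux control and glycolysis (vertical axes, from 0) by library in the 4 groups; points are libraries, with the mean and SD of 3 libraries beside them. SLC2A3 and HK2 are near 0 in HCCLM3 and higher in LX2 with HCCLM3 than in LX2 alone, ALDOC is higher with the partner in both lines, and HK1 is lower with the partner in both.

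The second comparison asks the same of LX2 grown with HCCLM3. Here 21 of the 38 genes rose and 7 fell, out of 19671 genes tested, or 55.3% and 18.4% beside 15.4% and 16.6% of all tested genes. The median log2 change of the members was 0.22, beside 0.01 for all genes. Of the 14 HIF targets outside glycolysis 10 rose and 1 fell, or 71.4% and 7.14%. Of the 17 glycolytic enzymes 8 rose and 5 fell, or 47.1% and 29.4%, beside the same 15.4% and 16.6% of all tested genes. SLC2A3, PDK1 and EPAS1 also rose, and HIF1A fell. Over all alternatives tried, 20 to 22 members rose and 6 to 8 fell.

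SLC2A3 (chromosome 12, minus strand, 7919230 to 7936187), a glucose transporter of high affinity, had the largest log2 change in LX2 among the 22 genes of glucose uptake, flux control and glycolysis. It had 50.1, 48.8 and 48.1 FPKM with HCCLM3, against 10.8, 10.4 and 10.0 FPKM alone. The groups were tight and far apart, and the rise was 4.61-fold (log2 2.21, SE 0.040, edgeR adjusted p = 6.62e-07). SLC2A14 is a near-identical copy, whose reads can be confused with those of SLC2A3; it had 87, 116 and 96 counts with HCCLM3 and 29, 36 and 32 alone. SLC2A1 had 23.2, 16.8 and 24.0 FPKM with HCCLM3 and 29.8, 17.4 and 27.5 FPKM alone and was not called. SLC2A3 was 69.9 ± 4.04% of the FPKM of both transporters with HCCLM3 and 30.2 ± 6.15% alone.

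HK2, GPI, PFKP and PFKL rose in LX2. HK2 had 8884, 10018 and 10059 counts with HCCLM3 and 5076, 4580 and 5015 counts alone, a 1.83-fold rise (log2 0.88, SE 0.039, edgeR adjusted p = 2.07e-05). HK1 fell 1.57-fold (log2 -0.65, edgeR adjusted p = 0.000841), so that HK2 was 38.9 ± 1.67% of the FPKM of both hexokinases with HCCLM3 and 18.0 ± 0.252% alone. PFKP, the platelet-type phosphofructokinase, averaged 75.9 ± 2.81 FPKM with HCCLM3 and 53.0 ± 0.816 FPKM alone and rose 1.40-fold, GPI rose 1.21-fold and PFKL, the liver type, rose 1.16-fold. PFKM, the muscle type, was not called, and PFKP was 68.1 ± 0.910% of the 3 phosphofructokinases with HCCLM3 and 60.5 ± 0.850% alone. SENP1, on the opposite strand of PFKM, held 29.4% as many counts as PFKM in LX2 (log2 0.05, edgeR adjusted p = 0.554).

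ALDOC had 13.7, 16.0 and 14.3 FPKM with HCCLM3, against 4.53, 5.42 and 5.61 FPKM alone, and rose 2.77-fold (log2 1.47, SE 0.10, edgeR adjusted p = 0.000143). ALDOA had 244, 268 and 278 FPKM with HCCLM3 and 101, 150 and 156 FPKM alone, and rose 1.90-fold (log2 0.93, edgeR adjusted p = 0.00642). Together with AC093512.2 the counts were 95203, 99763 and 100437 with HCCLM3 and 49189, 63979 and 68543 alone, so the groups stayed apart in the sum. PGK1 and GAPDH rose 1.27-fold and 1.19-fold with little spread: GAPDH had 2537, 2555 and 2585 FPKM with HCCLM3 and 2125, 2095 and 2108 FPKM alone.

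The enzymes that fell in LX2 beside HK1 were PKM, ENO1, PGAM1 and LDHB. PKM had 200, 197 and 206 FPKM with HCCLM3 and 297, 290 and 354 FPKM alone, and fell 1.59-fold (log2 -0.67, SE 0.075, edgeR adjusted p = 0.00099). ENO1 averaged 583 ± 3.28 FPKM with HCCLM3 and 732 ± 53.9 FPKM alone and fell 1.28-fold, and PGAM1 fell 1.13-fold. LDHB fell 1.15-fold (edgeR adjusted p = 0.0273), a call lost on FPKM values and when any library but replicate 1 of LX2 alone was left out (adjusted p 0.0708 to 0.0772). LDHA, TPI1 and ENO2, the neuronal enolase, were not called (log2 0.10, 0.16 and -0.08). LRRC23, on the same strand as ENO2, held 9.31% as many counts as ENO2 in LX2 and rose there (log2 0.97, edgeR adjusted p = 0.00214). The sum of the 17 enzymes was 1.997 ± 0.0121% of all FPKM with HCCLM3 and 1.808 ± 0.0215% alone; without GAPDH it was 2786 ± 32.5 FPKM with HCCLM3 and 2796 ± 71.5 FPKM alone.

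PDK1 rose 1.77-fold in LX2 (2097, 2387 and 2508 counts with HCCLM3 and 1289, 1218 and 1158 counts alone; log2 0.82, edgeR adjusted p = 0.000328). PFKFB4 averaged 4.46 ± 0.247 FPKM with HCCLM3 and 4.14 ± 0.118 FPKM alone and was not called; it overlaps UCN2 on the same strand, whose counts came to 39.5% of its own in LX2. PFKFB3 had 1282, 1543 and 1543 counts with HCCLM3 and 4129, 1496 and 1668 alone (edgeR adjusted p = 0.145), with replicate 1 alone far above the other two.

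**Figure D3:**
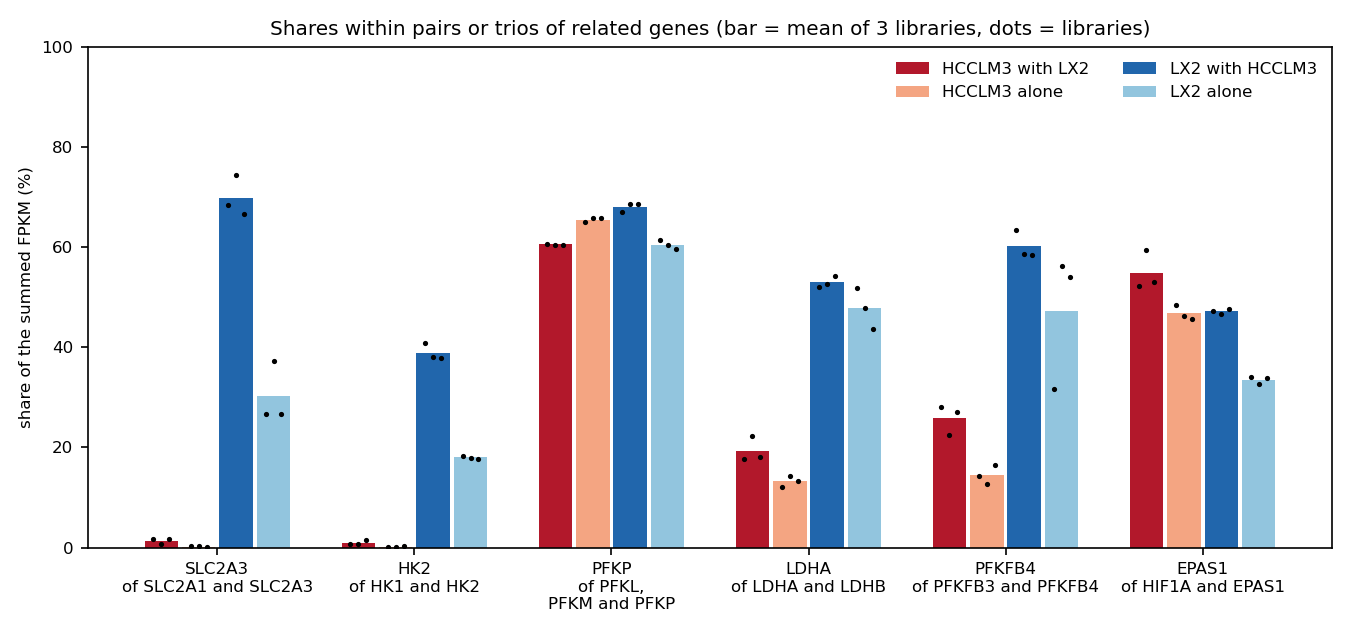
Share of the summed FPKM (vertical axis, percent) taken by 1 gene within sets of related genes; bars are means of 3 libraries and dots are libraries, by group. SLC2A3 takes 69.9% of the transporter FPKM in LX2 with HCCLM3 and 30.2% in LX2 alone, and HK2 takes 38.9% and 18.0% of the hexokinase FPKM in these groups.

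Among the HIF targets outside glycolysis in LX2, P4HA1 and P4HA2 rose together. P4HA1 (chromosome 10, minus strand, 73007217 to 73096974), a catalytic subunit of the enzyme that hydroxylates collagen prolines, had 52.1, 49.4 and 51.2 FPKM with HCCLM3 and 26.5, 26.6 and 27.0 FPKM alone. It rose 1.87-fold (log2 0.90, SE 0.032, edgeR adjusted p = 8.59e-06), and P4HA2, the alternative subunit, rose 1.54-fold (log2 0.62, edgeR adjusted p = 0.000172). A gene overlapping P4HA2 on the opposite strand held 19.9% as many counts as P4HA2 in LX2. ADM had 42.8, 44.0 and 43.5 FPKM with HCCLM3 and 25.8, 27.6 and 29.5 FPKM alone, a 1.54-fold rise (edgeR adjusted p = 0.000314). NDRG1 rose 1.45-fold and BNIP3L 1.26-fold, both with groups apart. ANKRD37 had 441, 488 and 433 counts with HCCLM3 and 142, 190 and 193 alone, and rose 2.41-fold (log2 1.27, SE 0.16, edgeR adjusted p = 0.00176). UFSP2, on the opposite strand, held 286% as many counts as ANKRD37 in LX2 and was not called (log2 0.07, edgeR adjusted p = 0.595). ERO1A rose 1.18-fold, and KDM3A 1.13-fold (edgeR adjusted p = 0.0406), a call that was lost without the filter on low counts and when any library but replicate 3 of LX2 with HCCLM3 was left out (adjusted p 0.0847 to 0.122).

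Both membrane carbonic anhydrases rose in LX2, at very different levels. CA9 had 18.7, 18.3 and 18.6 FPKM with HCCLM3 and 11.6, 9.88 and 10.8 FPKM alone, a 1.68-fold rise (log2 0.75, SE 0.073, edgeR adjusted p = 0.000528). ARHGEF39, on the opposite strand, held 37.1% as many counts as CA9 in LX2 and was not called there (log2 0.48, edgeR adjusted p = 0.0795). CA12 (chromosome 15, minus strand, 63321378 to 63381846) had 282, 338 and 315 counts with HCCLM3 and 16, 0 and 13 alone, a 29.8-fold rise (log2 4.90, SE 0.72, edgeR adjusted p = 0.00307). At 0.551 ± 0.0345 FPKM with HCCLM3 and 0.0170 ± 0.0149 FPKM alone, CA12 was near 0 in both groups, and the difference was 1.36% of the CA12 level in HCCLM3 alone. By the same measure 57 genes well expressed in HCCLM3 and near 0 in LX2 alone differed in LX2 by a median of 0.558% of the HCCLM3 level (90th percentile 1.16%). The part of HCCLM3 transcripts in the CA12 value was not tested.

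EGLN3 fell in LX2. It had 1.21, 1.24 and 1.58 FPKM with HCCLM3 and 3.64, 3.39 and 2.75 FPKM alone, and fell 2.48-fold (log2 -1.31, SE 0.15, edgeR adjusted p = 0.00107). EGLN1, BNIP3 and MXI1 were not called, at log2 0.10, 0.12 and -0.01. MXI1 was uneven in both groups, with 6996, 3716 and 2715 counts with HCCLM3 and 3301, 3404 and 6052 alone.

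The HIF alpha subunits moved in opposite directions in LX2. HIF1A had 114, 115 and 111 FPKM with HCCLM3 and 165, 174 and 168 FPKM alone, and fell 1.52-fold (log2 -0.60, SE 0.027, edgeR adjusted p = 2.17e-05). EPAS1, the other alpha subunit, averaged 102 ± 0.772 FPKM with HCCLM3 and 85.4 ± 0.468 FPKM alone, and rose 1.17-fold (log2 0.22, edgeR adjusted p = 0.000201). EPAS1 was 47.2 ± 0.469% of the FPKM of both subunits with HCCLM3 and 33.5 ± 0.704% alone. In HCCLM3 neither was called, with 23.6 ± 2.35 FPKM of HIF1A and 28.8 ± 2.53 FPKM of EPAS1 with LX2, against 26.7 ± 4.76 and 23.4 ± 3.42 FPKM alone. These are transcript levels, and HIF alpha is governed chiefly through protein stability, which was not measured.

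The third comparison, the co-culture change in HCCLM3 minus that in LX2, was fitted over all 12 libraries and 21511 genes. It was called above 0 for 5 members and below 0 for 12, or 13.2% and 31.6% of them, beside 9.65% and 11.5% of all genes tested. Of the 17 glycolytic enzymes none was called above 0. Below 0, 7 (41.2%) were called: GPI, PFKL, PFKP, ALDOA, GAPDH, PGK1 and LDHB, at log2 -1.03 to -0.31. Called or not, the estimate was above 0 for 4 enzymes and below 0 for 13. With library totals in place of TMM factors, 6 members were called above and 9 below, and of all genes 3000 above and 1598 below. Of the enzymes PFKM was then called above and 5 were called below, without PGK1 and LDHB. GPI and PFKP were called in opposite directions, with falls in HCCLM3 and rises in LX2; for PFKP the difference was log2 -0.87 (SE 0.076, edgeR adjusted p = 2.18e-05).

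Of the 14 HIF targets outside glycolysis, 4 were called above 0 and 5 below. That is 28.6% and 35.7% of them, beside 9.65% and 11.5% of all genes tested. CA9 differed by log2 4.27 (SE 0.28, edgeR adjusted p = 2.91e-06), having risen 33.2-fold in HCCLM3 and 1.68-fold in LX2. Its levels in co-culture lay close together, at 21.0 ± 0.975 FPKM in HCCLM3 with LX2 and 18.5 ± 0.219 FPKM in LX2 with HCCLM3, although the tables were normalized separately. NDRG1 rose in both lines and more in HCCLM3 (log2 difference 0.73, edgeR adjusted p = 6.66e-05), as did BNIP3L (0.26, adjusted p = 0.02), a call lost without replicates 2 or 3 of either LX2 group (0.0502 to 0.0545). EGLN3 was called in opposite directions (log2 difference 2.60, edgeR adjusted p = 7.67e-05), from counts near 0 in HCCLM3. P4HA1, P4HA2, ADM, EGLN1 and CA12 were below; P4HA1 differed by log2 -0.86 (SE 0.067, edgeR adjusted p = 9.72e-06), after a 1.87-fold rise in LX2 and no call in HCCLM3. The call of ADM was lost under most alternatives and under all but 2 of the 12 single libraries left out (adjusted p 0.0518 to 0.092), and that of LDHB, among the enzymes, under 8 of the 12 (0.0512 to 0.0769).

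PFKFB4 was the only one of the 5 transporters and regulators called in this comparison by the main edgeR fit (log2 difference 0.95, adjusted p = 0.000867). DESeq2 also called SLC2A1 and limma SLC2A3, both below 0. With the main edgeR fit their adjusted p was 0.0704 and 0.244. With single libraries left out, edgeR adjusted p was 0.0374 to 0.151 for SLC2A1 and 0.0079 to 0.991 for PDK1. Seen over both lines, ALDOC, CA9, NDRG1 and BNIP3L rose in each, and HK1, PGAM1, ENO1 and LDHB fell in each. For ALDOC the difference between lines was log2 -0.13 (SE 0.18) and for HK1 -0.21 (SE 0.18), neither called. Another 15 members rose in LX2 with no call in HCCLM3, and for 8 of these the difference was itself called. The share of all genes with each of these patterns was not counted, so they describe the members only. PFKM, TPI1, ENO2, LDHA, PFKFB3, BNIP3 and MXI1 were called in neither line. Of these, PFKM and ENO2 gained a call under some alternative in each line, MXI1 in HCCLM3 and BNIP3 in LX2.

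**Figure D4:**
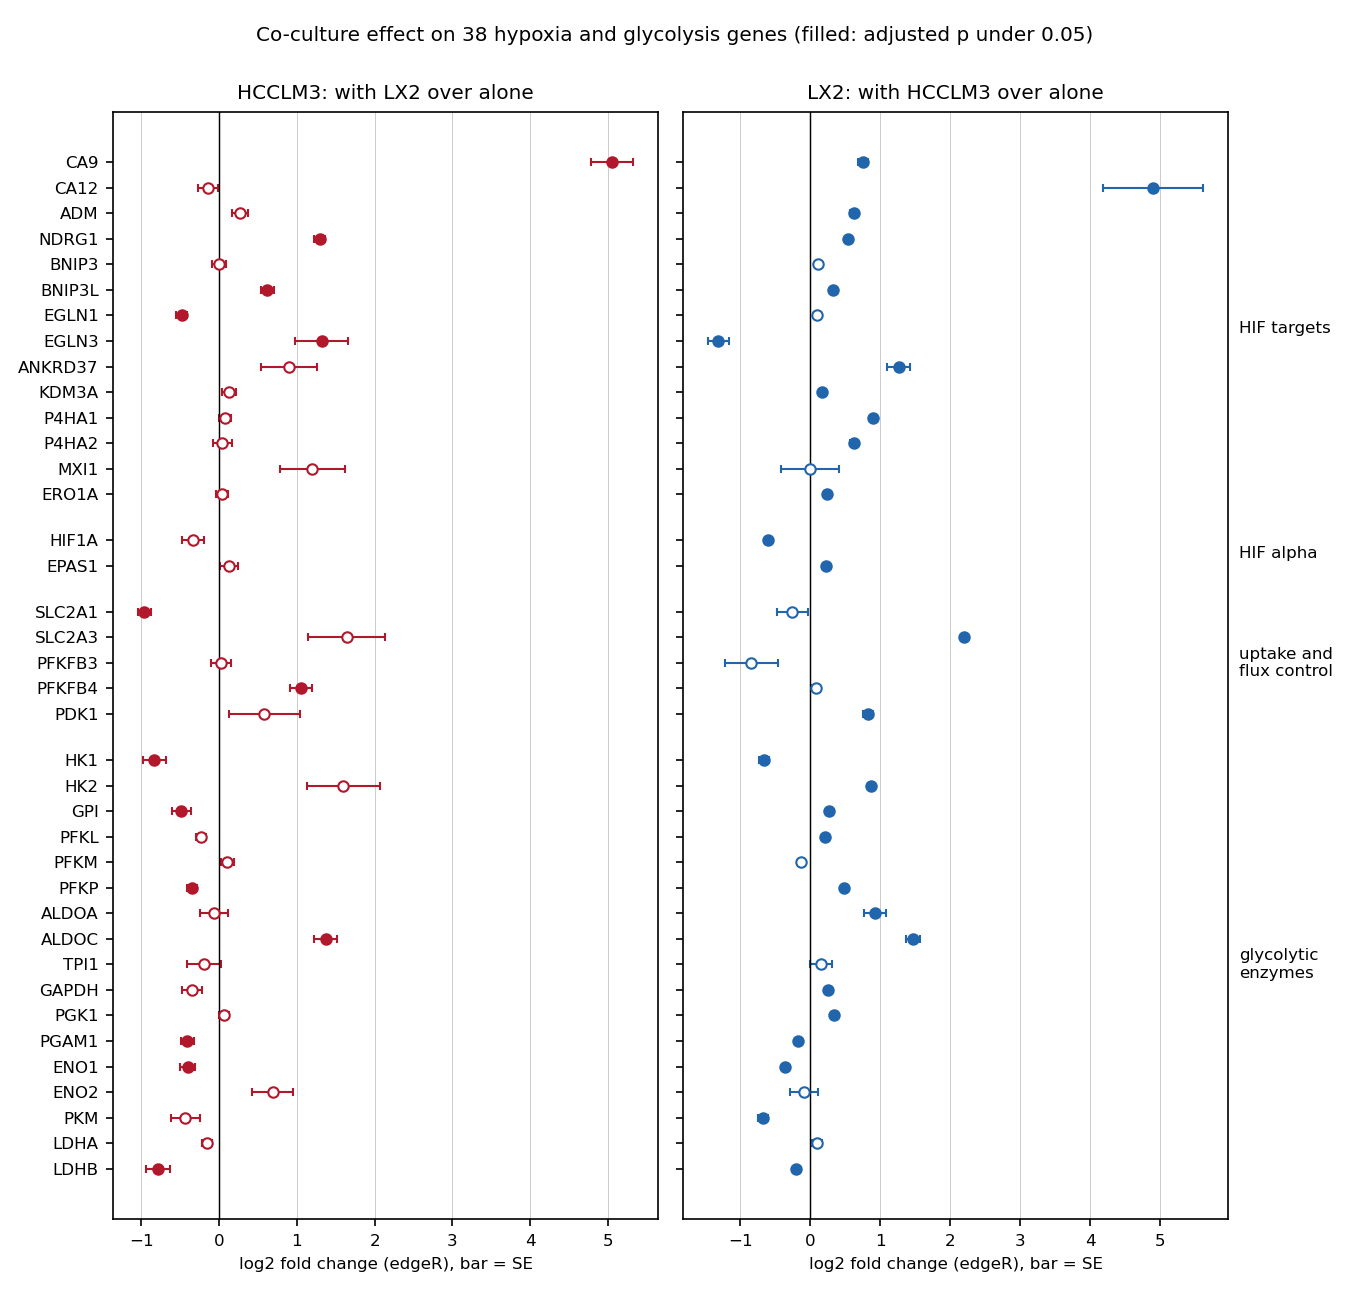
Log2 fold change of co-culture over alone for the 38 genes (horizontal axis, edgeR estimate with its SE as a bar) in HCCLM3, left, and LX2, right; filled points passed an adjusted p of 0.05. In HCCLM3 6 genes are filled right of 0 and 8 left of it, and in LX2 21 are right of 0 and 7 left.

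Other genes of these pathways, from lists that hold none of the 38, moved as follows. These lists too were chosen with earlier results of these data known, so their shares are description only. Of 30 further genes known to be induced by low oxygen, 11 rose and 3 fell in HCCLM3, with a median log2 change of 0.28, and 18 rose and 3 fell in LX2, with a median of 0.30. Of all tested genes, 10.1% rose and 11.6% fell in HCCLM3 and 15.4% and 16.6% in LX2; the shares of these 30 genes were 36.7% and 10% in HCCLM3 and 60% and 10% in LX2. Among called genes with a mean of at least 1 FPKM in a group, the largest rises in HCCLM3 were ANGPTL4, a secreted inhibitor of lipoprotein lipase, at log2 3.47, LOX, which crosslinks collagen, at 2.63, VEGFA, the vessel growth factor, at 2.32, and DDIT4, an inhibitor of mTOR signaling, at 2.13. VEGFA averaged 3.82 ± 0.193 FPKM with LX2 and 0.678 ± 0.207 FPKM alone. In LX2 they were PPP1R3C, a glycogen-targeting subunit, at log2 1.26, STC2, a secreted glycoprotein, at 1.14, BHLHE40, a transcriptional repressor, at 1.04, and DDIT4 at 0.998. DDIT4 averaged 511 ± 9.54 FPKM with HCCLM3 and 251 ± 1.48 FPKM alone. Among the falls were FAM162A and NAMPT in HCCLM3 and PLOD2, MIF and ZNF395 in LX2, at log2 -0.64 to -0.20.

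Of 11 tested genes of oxygen sensing and HIF partners, 1 rose and none fell in HCCLM3, where 9.09% is close to the 10.1% of all tested genes that rose. In LX2 3 rose and 3 fell, or 27.3% either way, beside 15.4% and 16.6% of all tested genes. The coactivator CREBBP rose in both lines (log2 0.58 and 0.29). In LX2 its relative EP300 rose (log2 0.43), and VHL, the ligase subunit that binds hydroxylated HIF alpha, fell (log2 -1.14, edgeR adjusted p = 0.00459), with 11.3 ± 0.506 FPKM with HCCLM3 and 24.4 ± 6.19 FPKM alone. Of 29 tested genes of wider glucose metabolism, 5 rose and 8 fell in HCCLM3, and 10 rose and 5 fell in LX2. These are 17.2% and 27.6% in HCCLM3, beside 10.1% and 11.6% of all tested genes, and 34.5% and 17.2% in LX2, beside 15.4% and 16.6%. PDK4, a pyruvate dehydrogenase kinase like PDK1, rose 3.63-fold in HCCLM3 and 3.74-fold in LX2. The lactate exporter SLC16A3 rose in HCCLM3 (log2 0.57) and fell in LX2 (log2 -0.32). HKDC1, a further hexokinase, fell in HCCLM3, with 21.8 ± 0.530 FPKM with LX2 and 31.0 ± 1.22 FPKM alone, a level close to that of HK1. PFKFB2, a relative of PFKFB4, rose 2.15-fold in LX2, and BPGM, which diverts a glycolytic intermediate to the effector of hemoglobin, fell 1.95-fold.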

How the data were processed

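RNA of HCCLM3 and LX2, each grown with the other line or alone, was sequenced in 12 libraries. Per the file headers, the authors deposited each library as a column of raw counts and a column of FPKM (fragments scaled by gene length and library size), with a separate table for either line. Per the labels' protocols, polyadenylated RNA was sequenced from both ends. The submitters' processing notes list StringTie 1.3.0, HISAT2 2.0 and Bowtie 0.12.2 without their roles, and a mouse build, yet the identifiers are human. GENCODE release 29 held 58394 of the 60612 identifiers, and 90.6% of those matched it in chromosome and in start or end, so positions were read as GRCh38. The protocol names adipose RNA, which is neither line. No source used here says whether reads were counted by strand.

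Counts were tested with edgeR 4.0.16 in R 4.3.3 (quasi-likelihood test, TMM, filterByExpr with a minimum count of 10 and a minimum total of 15), two-sided, with Benjamini-Hochberg adjustment over all genes tested and a call at an adjusted p under 0.05. Each line had its own fit over 6 libraries, and the co-culture change of HCCLM3 minus the co-culture change of LX2 was tested in a fit over 12 libraries and the genes in both tables. The functions were tested on simulated data. The alternatives were library totals without TMM factors, DESeq2 1.42.0, no filter on low counts, limma 3.58.1 on log2(FPKM + 1) and log2(FPKM + 0.1), the replicate number as a block, and leaving out each library in turn. FPKM means are given ± SD (n = 3); shares and sums of FPKM were computed per library and not tested, since 3 libraries against 3 allow no exact p under 0.1. Levels set across lines come from tables normalized separately. Depth was 61836616 to 77712308 counts a library; at such depth counting error is small except for genes near 0. Partner transcripts were gauged on genes below 0.1 FPKM in a line grown alone whose level in the other line grown alone was 20 FPKM or more.

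The 38 genes, the further lists and the tests were chosen with earlier results of these data known. Any of the 38 could be named; of each further list up to 4 called genes per direction with the largest log2 change and a mean of at least 1 FPKM in 1 group were eligible.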

Additional observations from a re-analysis of the deposited data

Results flagged for a closer look

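For 17 of the 38 genes the co-culture change differed between the lines by the edgeR test of the difference itself (adjusted p under 0.05 over 21511 genes); each value here is the log2 change in HCCLM3 minus that in LX2. The difference was above 0 for CA9 at 4.27, EGLN3 at 2.60, PFKFB4 at 0.95, NDRG1 at 0.73 and BNIP3L at 0.26. Among glycolytic enzymes it was below 0 for ALDOA at -1.03, PFKP at -0.87, GPI at -0.79, GAPDH at -0.63, LDHB at -0.62, PFKL at -0.48 and PGK1 at -0.31. Among HIF targets outside glycolysis it was below 0 for CA12 at -5.06, P4HA1 at -0.86, P4HA2 at -0.61, EGLN1 at -0.60 and ADM at -0.39. GPI and PFKP fell in HCCLM3 and rose in LX2, and EGLN3 rose in HCCLM3 and fell in LX2. The differences of CA12 and EGLN3 rest on a line in which the gene is near 0.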

How the results depend on the processing

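In HCCLM3, 9 of the 14 called genes kept their call and direction under all 12 alternatives, and EGLN3, GPI, ENO1, PGAM1 and PFKP lost theirs under at least 1. Of the 24 members not called, 9 gained a call under at least 1: ADM, ENO2, GAPDH, HK2, MXI1, PFKL, PFKM, PGK1 and SLC2A3. Members that rose and fell, 6 and 8 with edgeR and TMM, were 11 and 4 with library totals, 10 and 9 with DESeq2, 10 and 4 with limma on log2(FPKM + 1), and 11 and 4 on log2(FPKM + 0.1); with these FPKM values, as with library totals, the factors that TMM sets apart between the groups (1.05 to 1.08 with LX2 and 0.926 to 0.953 alone) are not applied. With each library left out in turn, 5 to 6 rose and 5 to 8 fell, and of all genes 1918 to 2928 were called in place of 3924: 2264, 2522 and 1918 without replicates 1, 2 and 3 of HCCLM3 with LX2, and 2574 without replicate 3 of HCCLM3 alone. Members that fell numbered 5 without replicate 3 of HCCLM3 with LX2 and without replicates 1 and 3 of HCCLM3 alone.

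In LX2, 26 of 28 calls held throughout, KDM3A and LDHB being the exceptions, and with libraries left out 4934 to 5209 genes were called, 20 to 21 members rising and 6 to 8 falling. Of the 10 members not called in LX2, BNIP3, ENO2 and PFKM gained a call under at least 1 alternative. For the difference between lines 13 of 17 calls held, ADM, LDHB, PGK1 and BNIP3L being the exceptions. With libraries left out 3602 to 4471 genes were called, with 4 to 6 members above 0 and 10 to 13 below. Of the 21 members whose difference was not called, 10 gained a call under at least 1 alternative. They were ANKRD37, ERO1A, HIF1A, HK2, LDHA, PDK1, PFKM, PGAM1, SLC2A1 and SLC2A3. HK2, whose difference was 0.71 and not called, was called at -0.67 with limma on log2(FPKM + 1), a scale that compresses low values, and HK2 is near 0 in HCCLM3. With single libraries left out its difference was 0.46 to 1.26, with an edgeR adjusted p of 0.00488 to 0.424. HK2 was thus called in opposite directions under different alternatives. Deviations from the group mean correlated little between same-numbered libraries (0.0171, 0.0452 and 0.0225 in HCCLM3 and -0.0390, 0.0115 and -0.0408 in LX2). Between differently numbered libraries the correlations were -0.0295 to 0.00711 in HCCLM3 and -0.0248 to 0.0660 in LX2. In HCCLM3 every same-numbered value was the higher, so a weak pairing by number was not excluded there. The main fits did not pair libraries by number. With the replicate block 3315, 4795 and 4471 genes were called in HCCLM3, in LX2 and for the difference, with 7 and 8, 20 and 6, and 6 and 13 members above and below 0. Counting error weighs most on members with few counts, such as EGLN3, HK2, SLC2A3 and ANKRD37 in HCCLM3, CA9 in HCCLM3 alone and CA12 in LX2.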
